A study of Mus musculus with 12 samples.

Results

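The change in 5-hydroxymethylcytosine (5hmC) from proliferating progenitors (PP) to neurons in mouse cortex at E14.5 was described over all 47478 deposited 5hmC peaks, out of 102563 peaks of both cytosine marks. No peak was filtered, and the change of a peak was its log2 level in neurons minus that in PP, minus the median of this difference over all peaks (-0.081). The cells came from double heterozygous embryos carrying Btg2-RFP and Tubb3-GFP reporters, and were sorted into PP (RFP-/GFP-), differentiating progenitors (DP, RFP+/GFP-), and neurons (GFP+, irrespective of RFP). No treatment was given, and all groups shared both reporters. These gates limit the groups as models, since PP are defined by the absence of both reporters and can hold any other unlabelled cell of the cortex, whereas the neuronal gate holds every Tubb3-GFP+ cell, including interneurons. All 3 cell types were barcoded and combined ahead of hMeDIP, the pull-down of sheared DNA with an antibody against 5hmC.

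5hmC is made from 5-methylcytosine (5mC) by the Tet dioxygenases. It is both an intermediate on the way back to unmodified cytosine and a lasting mark that is abundant in neurons, mostly within gene bodies. In the developing cortex, proliferating radial glia give rise to neurogenic progenitors, which divide to form neurons.

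Each level is the authors' log2 of the mean normalised reads of a peak in a cell type, averaged over the 3 biological replicates given in the methods. Levels of single replicates, counts, and inputs were not part of the tables used here, and the authors' own comparison columns were not used. No spread between replicates, test, or depth therefore stands beside the values below, and every comparison is a description of 1 mean per cell type. A peak is called a 5hmC-gain or 5hmC-loss locus at a change of at least 1.5-fold (0.58 on the log2 scale), with no p-value behind the name. The expression columns come from an earlier study of the same cell types, so they describe the labels and not the cells pulled down here. Btg2 and Tubb3 also drive the sorting reporters, so their order follows from the gates. Sox2, Pax6, Hes5, and Nes, genes of radial glia, were highest in PP, Btg2, Eomes, and Neurog2, genes of neurogenic progenitors, in DP, and Tubb3, Dcx, Neurod2, Neurod6, and Tbr1, genes of newborn neurons, in neurons. Tbr1 was the nearest gene of no 5hmC peak.

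Sequences are shown first for the loci at which the study placed guide RNAs and that overlap a 5hmC peak. In the study the guides direct dCas9 fused to the Tet1 catalytic domain, to lower methylation at the locus, and they do not read a mark. Dchs1 was picked for its change in both marks, and the other guide loci mainly for high methylation. Each guide is 20 bases long and is written 5′ to 3′, with the 12 bases nearest to the PAM in capitals. All coordinates below are those of mm10 (GRCm38), as the files give them, and the files do not say whether peak starts count from 0 or 1, so that an edge may be off by 1 base.
Cdk5r1 guide 1: tattcttgTTGCTTTTACAG
Cdk5r1 guide 2: aagaatacATCAACCCTTCA
Wif1 guide 1: attggctgAGCAAGGCAGAG
Wif1 guide 2: ctgtcagtCTGTCCTCGAGT
Dchs1 guide 1: ttcatgtgGACTGACACAGC
Dchs1 guide 2: ccctattcTCCTTTCTTTCC

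The Cdk5r1 guides fall in a region (chr11:80480578-80480766) in a gene whose product activates Cdk5 in neurons. Both overlapping 5hmC peaks lay inside the gene. The peak at chr11:80480627-80480754 had a level of 2.78 (PP), 3.84 (DP), and 4.81 (neurons), a change of 2.11. The peak beside it, chr11:80480394-80480582, changed by 1.37. Wif1, which encodes a secreted Wnt inhibitor, had its peak upstream, at -4329 bp from the start site (chr10:121029575-121029689), with 4.05 (PP), 4.98 (DP), and 6.0 (neurons), a change of 2.04. Dchs1, a large cadherin that binds Fat4, had a peak inside the gene (chr7:105777884-105778167) with 5.30 (PP), 6.03 (DP), and 6.46 (neurons), a change of 1.24.

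Of 10 bisulfite amplicons, 6 overlapped a 5hmC peak. These 10 include neighbouring amplicons at Dchs1 and leave out the study's amplicons for predicted off-target sites. Those outside the guide regions were near Gm17566, with a change of 2.72, inside Tiam1, a Rac activator, with 2.20, and upstream of Neurod2, a bHLH factor of cortical neurons. The Neurod2 peak (chr11:98333271-98333454) was the exception among them. Its level was 4.57 (PP), 5.08 (DP), and 3.28 (neurons), a change of -1.21, so that it was highest in DP and lowest in neurons. The study chose these loci on the same samples, so their direction is no independent evidence.

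A second set of sequences shows promoters with a changed 5hmC peak. RefSeq gives 32619 promoter windows (GRCm38.p6), each with 250 bases before and 50 after a start site, and 385 peaks overlapped 413 of them. Among these peaks, 103 were 5hmC-gain loci (26.8%), 29 were 5hmC-loss loci (7.53%), and 253 were neither, beside 22.1% gains and 7.71% losses among all peaks. For 184 of the 385 peaks, the promoter belonged to the nearest gene that the authors list for the peak. By the authors' own distances, peaks within 1 kb of the start site gained less often, at 16.7% upstream and 17.7% inside. The share of 26.8% is therefore not read as an excess of gains at promoters. Printed are the largest gains and losses at a gene's own promoter whose 250 bases before the start site overlap no gene of the RefSeq table. Capitals mark the bases inside the peak, and each sequence reads 5′ to 3′ on the strand of the gene.
Dctd, gain, chr8:48098842-48099091, plus strand: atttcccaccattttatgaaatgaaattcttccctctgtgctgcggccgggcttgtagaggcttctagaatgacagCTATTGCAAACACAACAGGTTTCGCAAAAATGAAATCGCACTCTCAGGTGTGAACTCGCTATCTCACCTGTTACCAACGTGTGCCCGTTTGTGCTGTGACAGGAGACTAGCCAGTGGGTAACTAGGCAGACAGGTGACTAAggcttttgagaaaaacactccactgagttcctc
Serpinf2, gain, chr11:75439502-75439751, minus strand: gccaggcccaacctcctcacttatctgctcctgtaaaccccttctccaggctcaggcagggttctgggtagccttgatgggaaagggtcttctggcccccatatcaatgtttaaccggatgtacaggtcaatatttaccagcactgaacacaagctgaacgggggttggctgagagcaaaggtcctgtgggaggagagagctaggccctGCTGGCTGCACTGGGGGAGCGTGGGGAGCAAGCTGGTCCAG
Tmem215, gain, chr4:40471930-40472179, plus strand: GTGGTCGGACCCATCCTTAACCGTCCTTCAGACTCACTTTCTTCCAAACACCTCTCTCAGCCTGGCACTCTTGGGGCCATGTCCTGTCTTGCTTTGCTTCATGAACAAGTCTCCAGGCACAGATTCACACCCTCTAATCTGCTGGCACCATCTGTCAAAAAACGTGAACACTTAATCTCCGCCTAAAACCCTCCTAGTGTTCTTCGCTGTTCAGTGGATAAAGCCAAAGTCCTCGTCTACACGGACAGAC
Zfp160, loss, chr17:21008691-21008940, plus strand: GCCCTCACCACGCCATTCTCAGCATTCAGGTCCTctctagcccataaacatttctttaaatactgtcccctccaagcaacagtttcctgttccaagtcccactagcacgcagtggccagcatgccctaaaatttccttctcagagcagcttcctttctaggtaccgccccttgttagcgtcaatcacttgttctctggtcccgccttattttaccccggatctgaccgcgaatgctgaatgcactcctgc
D1Pas1, loss, chr1:186967166-186967415, plus strand: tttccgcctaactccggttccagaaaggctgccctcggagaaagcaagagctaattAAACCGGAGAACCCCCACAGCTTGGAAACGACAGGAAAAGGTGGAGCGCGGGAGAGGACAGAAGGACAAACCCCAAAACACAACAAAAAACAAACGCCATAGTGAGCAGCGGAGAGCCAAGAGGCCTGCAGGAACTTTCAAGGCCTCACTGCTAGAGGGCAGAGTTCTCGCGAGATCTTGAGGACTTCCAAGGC
Tmem178, loss, chr17:80944382-80944631, plus strand: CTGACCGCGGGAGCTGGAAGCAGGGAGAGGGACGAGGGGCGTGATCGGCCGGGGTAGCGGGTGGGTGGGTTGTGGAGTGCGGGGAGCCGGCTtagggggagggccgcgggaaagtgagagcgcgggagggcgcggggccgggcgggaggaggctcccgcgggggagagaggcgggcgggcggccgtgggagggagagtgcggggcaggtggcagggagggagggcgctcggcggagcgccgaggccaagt

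The Dctd peak, at the promoter of a deoxycytidylate deaminase, had a level of 0.34 (PP), 2.39 (DP), and 4.25 (neurons), and the 250 bases shown hold 7 CpG dinucleotides. At the promoter of Serpinf2, which encodes the plasmin inhibitor alpha-2-antiplasmin, the level was 2.65 (PP), 4.18 (DP), and 4.84 (neurons), with 3 CpG. At the Tmem215 promoter the level was 3.62 (PP), 4.57 (DP), and 5.41 (neurons), with 7 CpG. Zfp160, a zinc finger gene, had the largest of these losses, with 4.08 (PP), 3.95 (DP), and 2.94 (neurons) and 8 CpG. D1Pas1, which encodes a DEAD-box RNA helicase, had a promoter peak that fell by 0.95, from 3.99 in PP through 3.57 in DP to 2.96 in neurons, and its printed bases hold 11 CpG. The Tmem178 promoter, with 29 CpG in the bases shown, held a peak at 4.95 (PP), 4.27 (DP), and 4.17 (neurons). The gaining promoters shown had fewer CpG than the losing ones. Over all promoter windows with a peak the median was 8 CpG per 300 bp for gains, 12 for losses, 7 for the rest, and 7 for all windows of the annotation.

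Letters bound by factors of the cortex were counted in the same windows on both strands. The general E-box CANNTG, which includes the next 2 motifs, was present in 83.5% of windows with a 5hmC-gain peak, 62.1% of those with a loss, 78.7% with an unchanged peak, and 72.3% of all windows. CAGATG, the form preferred by proneural bHLH factors, was present in 32% of windows with a gain, 10.3% with a loss, 21.7% with an unchanged peak, and 17.1% of all windows. CAGCTG stood at 31.1% with a gain, 13.8% with a loss, 17.8% with an unchanged peak, and 16.4% of all. TAATTA, the core of many homeodomain sites, was in none of the 103 windows with a gain, 3.45% with a loss, 3.56% with an unchanged peak, and 5.25% of all. TTGGC, the letters of an NFI site, were in 53.4% of windows with a gain, 41.4% with a loss, 38.7% with an unchanged peak, and 46.9% of all. The RFX letters GTTGCC were in 10.7% of windows with a gain and 12.3% of all. For ACAAAG, read by Sox factors, the shares were 20.4% and 18.7%. The octamer ATGCAAAT of POU factors was in 0.97% and 1.75%. A match is a run of letters and not a bound site, and base composition differed between these sets, with a median GC content of 52.7% for gains and 58.0% for losses.

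Over all peaks, 10484 gained 5hmC from PP to neurons (22.1%) and 3660 lost it (7.71%), or 2.86 gains per loss. The excess of gains grew with size. At 2-fold or more, 6758 peaks gained (14.2%) and 588 lost (1.24%), at 4-fold 2580 gained and 37 lost, and at 8-fold 921 gained and 9 lost. The distribution thus had a long tail on the side of gains, with a 1st percentile of -1.05 and a 99th percentile of 3.58. The balance of gains and losses at 1.5-fold depends on the centring, because the mean of the difference lies 0.24 above its median. Centred on the mean, 8062 peaks gained and 9555 lost, or 0.84 gains per loss. At the threshold itself, the nearest changes were 0.585 on both sides of the gain limit and -0.585 on both sides of the loss limit.

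The levels in PP and neurons define these classes and are given as a description. The median level of 5hmC-gain loci was 3.77 (PP), 4.27 (DP), and 4.97 (neurons), and in neurons they stood slightly above the peaks that did not change, which stood at 4.88, 4.84, and 4.74. 5hmC-loss loci started near that common level, at 4.79 in PP, and went through 4.52 in DP to 3.94 in neurons. Levels below 8 normalised reads (log2 of 3) were found at 2597 peaks in PP (5.47%), 929 in DP, and only 149 in neurons. Of the 2597 in PP, 2587 were 5hmC-gain loci, which the choice of peaks nearly fixes, because a peak entered the table by being called in some cell type and one so low in PP will mostly have entered through another. The standard deviation of the levels over peaks was 1.0 (PP), 0.81 (DP), and 0.74 (neurons), so levels were most even in neurons.

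**Figure D1:**
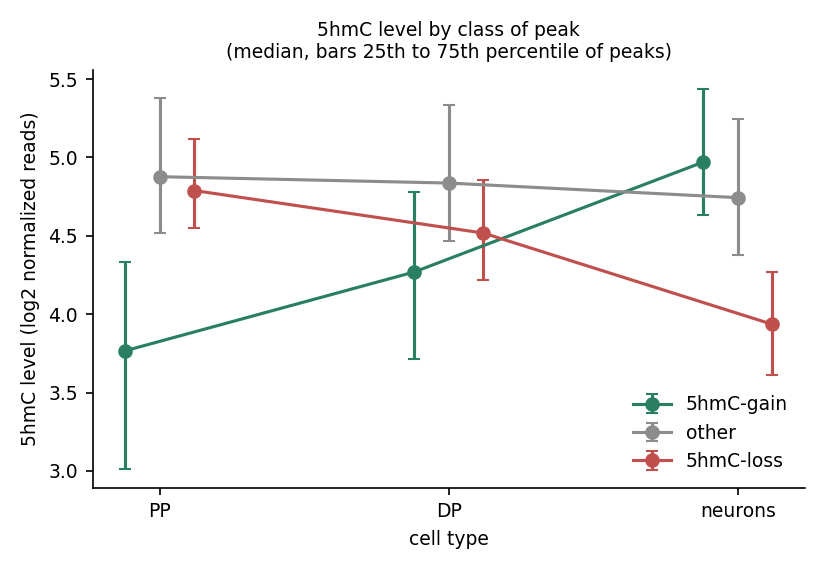
Median 5hmC level (log2 normalised reads) of 10484 5hmC-gain, 3660 5hmC-loss, and 33334 other peaks in PP, DP, and neurons, with bars from the 25th to the 75th percentile of peaks, which are not replicate error. Gains start at 3.77 in PP and end at 4.97 in neurons, losses start at 4.79 and end at 3.94, and both pass through intermediate values in DP.

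Loci picked for a difference between PP and neurons favour a DP value between them, and the position of DP is given only as a description. DP lay between PP and neurons at 81.0% of 5hmC-gain and 78.0% of 5hmC-loss loci. They were nearer to PP at 60.4% of the gains and 66.7% of the losses. At the remaining gains, DP were below PP at 14.0% and above neurons at 4.98%. Whether the difference between these shares exceeds replicate error could not be examined.

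The share of changed peaks varied with the level. Since the level is the mean of the PP and neuron values that also give the change, a peak that is high in only 1 of them tends to a low mean by construction, and these shares are a description. In the lowest of 10 equal groups by mean level, 66.5% of peaks gained and 13.4% lost, and in the highest 10.3% gained and 0.97% lost. The middle groups were closer to each other, with 14.1% to 20.6% gaining in the third to the eighth. Gains outnumbered losses in each of the 10, from 1.68 gains per loss in the third to 10.6 in the highest. Narrow peaks gained more often as well, with 37.6% in the narrowest of 5 width groups (99 to 142 bp) and 14.7% to 22.9% in the others. The depth behind a level and the width of a peak were not separated from the change here.

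**Figure D2:**
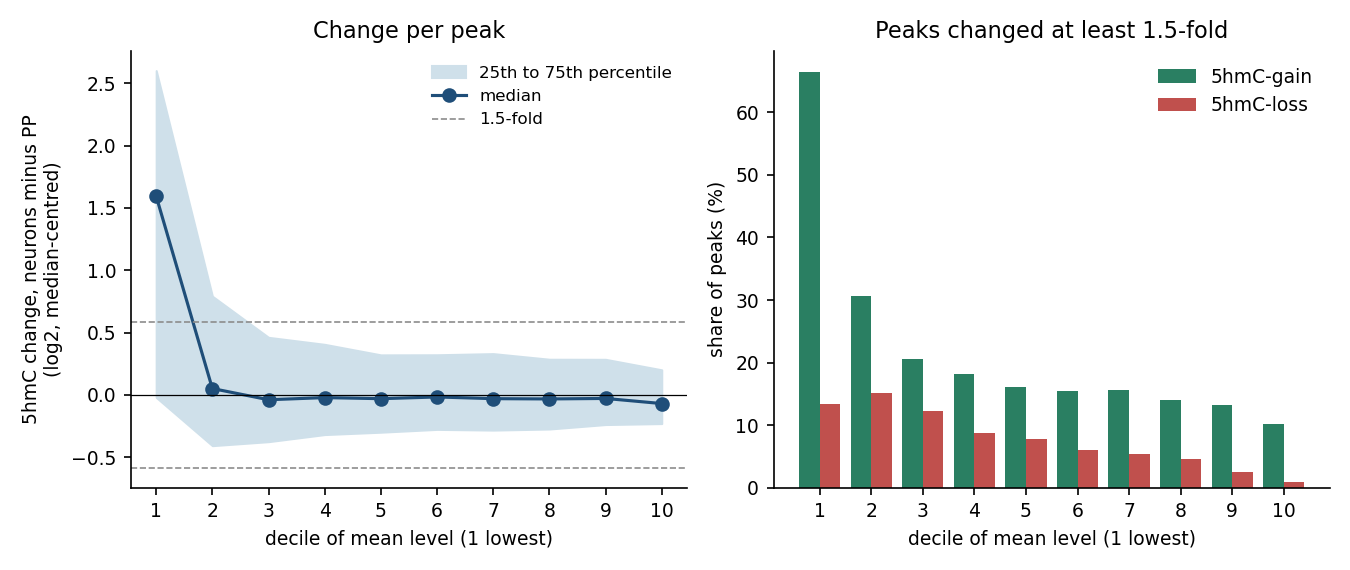
Left, median 5hmC change from PP to neurons (log2, centred on the median of all peaks) by decile of mean level, with the 25th to 75th percentile of peaks shaded and 1.5-fold dashed. Right, share of peaks (%) that gained or lost at least 1.5-fold, where gains fall from 66.5% in the lowest decile to 10.3% in the highest and stay above losses throughout.

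The most extreme changes came from peaks at the floor of the table. In PP, 105 peaks shared the lowest listed level of -0.051, and 103 of them were gains, so the size of their change depends on that floor. The largest was inside Xylt1, a xylosyltransferase that starts glycosaminoglycan chains, with -0.051 (PP), 2.31 (DP), and 5.94 (neurons). The largest loss of all, inside Setbp1, went from 5.46 in PP through 3.68 in DP to 0.32 in neurons. That gene otherwise leaned to gains, with 14 gains and 3 losses over its 30 peaks and a median change of 0.47.

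Among peaks with a mean level at or above the median, 13.7% gained and 3.94% lost, and the 10 largest changes on each side were taken as named loci. Inside Plcxd2 (chr16:46006311-46006450), a phospholipase-like gene, the level was 2.6 (PP), 5.91 (DP), and 6.82 (neurons), a change of 4.31. A peak inside Psg16 went from 2.83 in PP through 5.70 in DP to 6.95 in neurons, a change of 4.20. These were followed by peaks upstream of B4galt1, a galactosyltransferase, with 3.81, inside Il17c, a cytokine gene, with 3.8, and inside Syf2, a splicing factor, with 3.50. Atxn10, Rpl38-ps2, Apobec2, F2r, and Hspb1 completed the list, with changes of 3.44 down to 3.15. The nearest genes were of mixed kinds, since the expression of Psg16 was 3.4 in PP and 58.7 in neurons, that of Il17c 8.3 and 14.5, and that of B4galt1 1170 and 336.

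The largest losses among these peaks were smaller than the gains. A peak upstream of Dpy19l1, at -38996 bp from its start site (chr9:24542068-24542204), which encodes a mannosyltransferase, went from 6.96 in PP through 6.58 in DP to 3.86 in neurons, a change of -3.02. Inside Stx6, a syntaxin of the endosomal pathway, the level was 6.29 (PP), 5.68 (DP), and 3.32 (neurons), a change of -2.89. The other losses were near C130074G19Rik with -2.66, Rasgef1b with -2.10, Ncam1, a neural cell adhesion molecule, with -1.94, Nfix, a nuclear factor I gene, with -1.93, Gpr151 with -1.83, BC028471 with -1.81, Emx1, a homeobox gene of the dorsal telencephalon, with -1.73, and Hebp2 with -1.69. Expression of Dpy19l1, Stx6, Rasgef1b, Ncam1, and Nfix was higher in neurons than in PP, for instance 1909 in PP and 12703 in neurons for Rasgef1b, although these peaks lost 5hmC.

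Position relative to the nearest gene went with the share of gains. Inside genes, 26.7% of 17176 peaks gained and 7.19% lost, beside 21.4% and 7.65% downstream and 18.5% and 8.18% upstream. The share inside exceeded that upstream in each of the 10 level groups, for instance 12.5% and 7.91% in the highest and 72.8% and 61.3% in the lowest, and on each of the 20 chromosomes. Losses were less frequent inside than upstream in all level groups but the sixth, with 11.1% and 15.1% in the lowest and 0.88% and 1.16% in the highest.

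Within genes, the first kilobase differed from the rest. There 17.7% of 668 peaks gained, close to the 16.7% of 700 peaks in the first kilobase upstream, whereas 27.8% gained at 1 to 5 kb and 28.7% at 20 to 100 kb into the gene. Upstream and downstream of the nearest gene the shares were lowest over 100 kb from the start site, at 14.8% and 16.2%. There a peak may still lie close to the end of a long gene. The position is given for the nearest gene only, so such a peak may also lie inside another gene, which was not examined. Of the peaks inside genes, 15219 could be placed along a RefSeq gene body, which was cut into 10 equal stretches. The share of gains was 24.3% in the first stretch, 25.5% to 28.7% from the second to the seventh, 31.3% in the eighth, 30.1% in the ninth, and 36.8% in the last. Fewer of the placed peaks lay late in genes (489 in the last stretch, 3023 in the first), so these shares differ in precision. Peaks were assigned by the nearest start site, so one late in a gene can go to another gene and be missing here. The later stretches thus hold a selected part of the peaks, and how this acts on their shares was not tested.

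**Figure D3:**
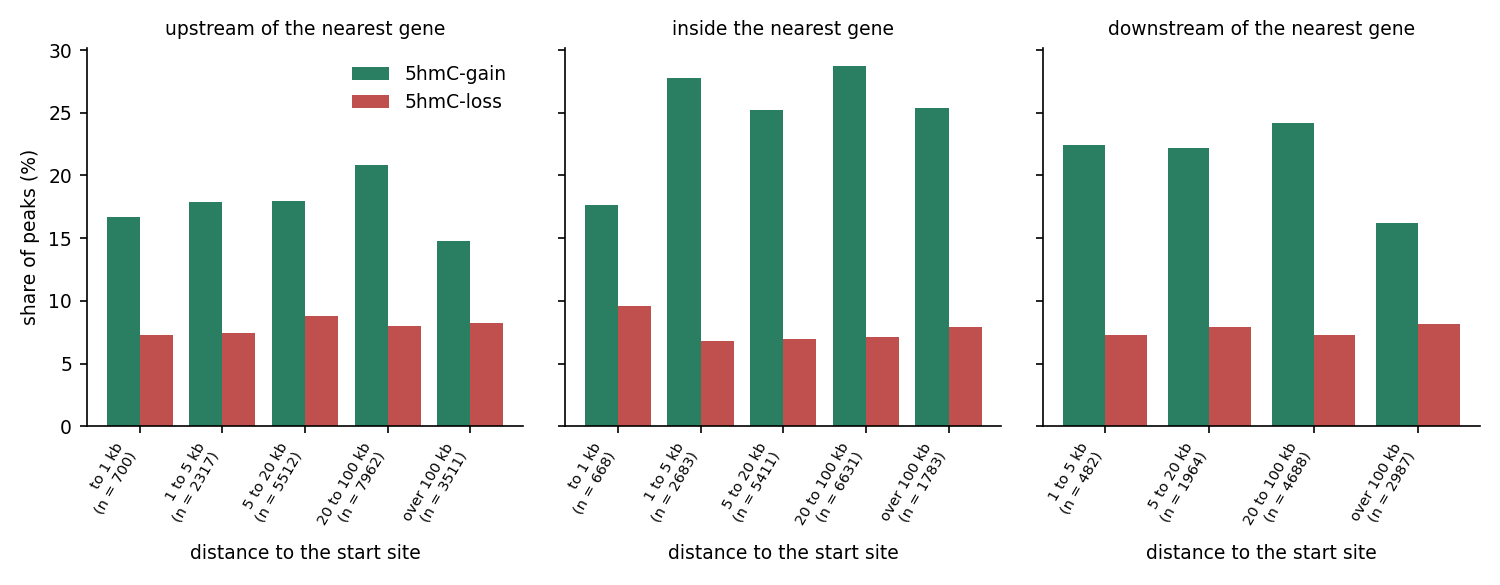
Share of peaks (%) that gained or lost at least 1.5-fold, by position upstream, inside, or downstream of the nearest gene and by distance to the start site, with the number of peaks under each pair of bars (bins under 50 peaks left out). Gains are at 17.7% in the first kilobase inside genes and 27.8% at 1 to 5 kb, and are lowest beyond 100 kb on either side.

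5hmC-gain loci also lay near each other. The next peak within 1 kb of a gain was a gain in 45.8% of 797 cases, compared with 23.1% of 1795 after an unchanged peak and 21.3% of 183 after a loss. With distance this share fell to 36.4% at 1 to 5 kb, 32.3% at 5 to 20 kb, and 24.3% at 20 to 100 kb. For losses the values were closer. The next peak was a loss in 6.01% of cases within 1 kb of a loss and in 7.24% after an unchanged peak, but in 8.87% and 7.03% at 1 to 5 kb, 8.40% and 7.64% at 5 to 20 kb, and 9.84% and 8.47% at 20 to 100 kb. Neighbouring peaks may share DNA fragments, so these pairs are not independent.

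Chromosome X stood apart from all autosomes. Of its 1009 peaks, 31 gained (3.07%) and 114 lost (11.3%), with a median change of -0.19, whereas on autosomes the share of gains ran from 18.7% (chromosome 16) to 25.2% (chromosome 5) and that of losses from 5.90% to 8.78%. The share of gains on X was below that of autosomes in each of the 10 level groups, with 30.8% and 66.8% in the lowest and 2.35% and 10.4% in the highest. Inside genes of X it was 4.91%, and upstream of them 2.52%. In the 5mC table, the 799 peaks on X had a median change of 0.093 and the autosomal peaks -0.0014. The sex of the embryos is not given in the sources used here, and its part in the X values was not tested.

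Dcx, which encodes the microtubule protein doublecortin of migrating neurons, held the largest gain on X. That peak, 2197 bp into the gene (chrX:143931005-143931223), had a level of 0.67 (PP), 4.01 (DP), and 5.44 (neurons), a change of 4.86, while the expression of Dcx was 2306 (PP), 32461 (DP), and 119166 (neurons). The 3 Dcx peaks ranged down to -0.32. Scml2, a Polycomb-related gene, and Gm14523 had the most losses on X. Of 16 Scml2 peaks 3 lost and none gained, with changes from -0.82 to 0.23, and of 5 Gm14523 peaks 3 lost. The single peak of Xist, the RNA of X inactivation, was at 5.67 (PP), 5.80 (DP), and 5.46 (neurons), a change of -0.13.

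**Figure D4:**
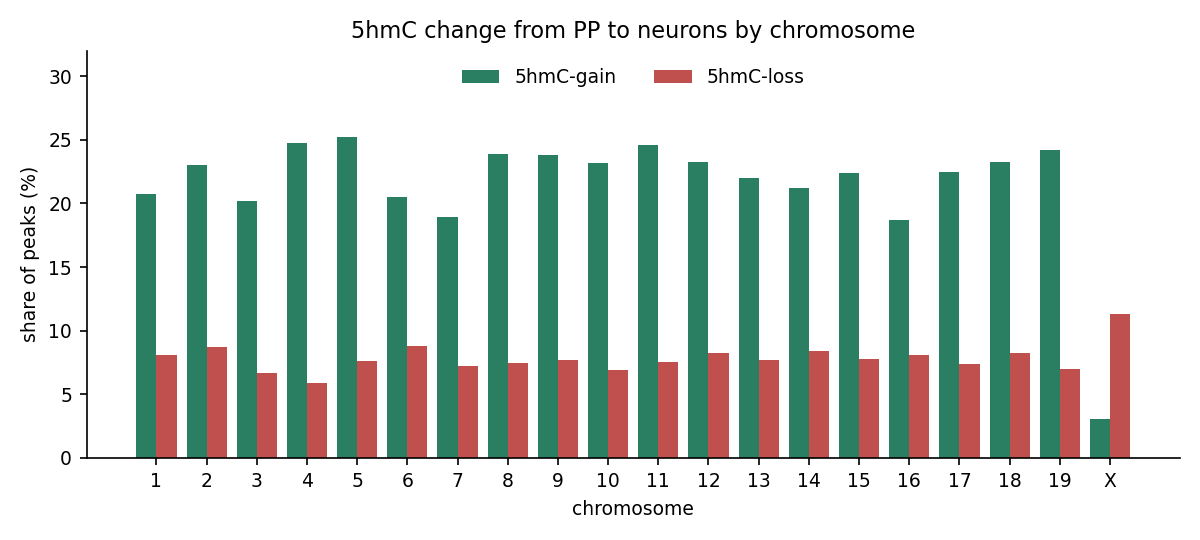
Share of 5hmC peaks (%) that gained or lost at least 1.5-fold from PP to neurons on each chromosome. Autosomes lie between 18.7% and 25.2% for gains, and X, with 3.07% gains and 11.3% losses, is the only chromosome with more losses than gains.

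Expression of the nearest gene was set beside the change. The values come from an earlier study of the same cell types, on a scale that the table does not name, so that levels are not compared between genes. In sorted populations, a lower value from fewer cells of a kind and one from less RNA per cell cannot be told apart. Peaks whose gene was 2- to 8-fold higher in neurons than in PP gained in 26.2% of cases, and those of genes more than 8-fold higher in 23.9%. For genes within 2-fold the share was 21.2%, and for genes more than 8-fold lower 18.2%. Losses ran only from 7.04% to 7.95% across these groups. Inside genes the shares were 31.9% for genes 2- to 8-fold higher and 21.1% for those more than 8-fold lower, and upstream 21.1% and 14.5%. Genes more than 8-fold higher stood at 27.9% inside and 20.4% upstream.

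At the level of genes the relation was weak. Spearman's rho between the median change of a gene's peaks and the log2 expression change was 0.044 across 12787 genes and 0.056 across 6929 genes with peaks inside. Genes share the libraries of each cell type and differ in their number of peaks, so rho is a description only. Of 2951 genes at least 2-fold higher in neurons, 50.4% had at least 1 gain and 24.9% at least 1 loss, of 3004 genes at least 2-fold lower 37.9% and 22.9%, and of the 6832 genes between them 37.1% and 21.1%. Genes lower in neurons thus had about the share of gains of genes in between. The genes higher in neurons also had more peaks, on average 4.51 per gene, compared with 3.67 and 3.27. The contrast was widest in short genes. For genes up to 20 kb, 34.0% of inside peaks gained where expression was at least 2-fold higher and 20.2% where it was at least 2-fold lower, and for genes over 300 kb the shares were 24.6% and 17.6%.

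In all, 5201 genes had a gain, 2895 a loss, and 1326 both. Mixed genes were common, since among 3137 genes with at least 5 peaks 1017 had both, and the difference between the highest and lowest peak of a gene had a median of 2.01 on the log2 scale. All peaks gained in 7 of these genes, and in none did all peaks lose. Tmem50b, a small membrane protein gene, had the highest median, with 5 of 5 peaks gaining by 1.14 to 4.68 and an expression of 1244 in PP and 5452 in neurons. Rab6b, a Rab GTPase of neurons, gained at 4 of 6 peaks with a median of 2.18, and Nrxn2, a presynaptic adhesion molecule, at 4 of 6 with 1.97. D1Pas1 gained at 4 of 5 peaks, all 4 downstream of the gene at 18883 to 44973 bp from its start site, the exception being the promoter peak printed above. Akap5, an anchoring protein of postsynaptic kinases, gained at 4 of 5 and Skap1 at 6 of 8, followed by Gm9754 at 5 of 7, Hyi at 3 of 5, Tbc1d8 at 3 of 5, and Snrpa1, a spliceosomal protein, at 5 of 8. A gene's peaks are those nearest to it and need not lie inside it. Those of Snrpa1 all lay upstream, at -16650 to -97391 bp from its start site.

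Losses did not fill any gene in this way. Gm13389 lost at 4 of 7 peaks with a median of -0.90, and RP23-454G7.1 at 4 of 6 with -0.77 but gained at 1, by 0.69. Ccng1, a cyclin induced by p53, lost at 4 of 6 with a median of -0.72 and changes from -1.26 to 0.44. All 4 losing peaks lay far upstream, at -75369 to -117605 bp from its start site. Slc25a26, the mitochondrial carrier of S-adenosylmethionine, the methyl donor, lost at 7 of 14 with -0.56 but also gained at 1, by 2.30. Lmo3, a LIM-only factor, gained at 2 of 5 peaks, by up to 2.31, and lost at 1, so that its low median does not stand for more losses than gains. Cds2, an enzyme of phospholipid synthesis, lost at 2 of 5 and gained at 1. Gm12756, Chst12, Gm14523, and Utp14b lost at 3 of 5 each. Of these, Gm12756 and Chst12 also gained at 1 peak each, by 1.65 and 2.28.

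Next, 12 lists of genes were examined, holding 224 genes of which 167 were nearest to a peak. The share of gains was above the 22.1% of all peaks in 7 of the 12, but for radial glia, axon guidance, and glia this turned round under another threshold or level filter, as it did for cell cycle genes and non-neural tissues, which lay below. The lists were drawn up with earlier results of these data known. Their sizes are small and their genes share neighbourhoods, so that a list near 22.1% is not told from the background.

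Genes of the neuronal cytoskeleton and outgrowth had the highest share, with 48 of 117 peaks gaining (41.0%) and 8 losing (6.84%), a median change of 0.26, and 15 of 16 genes at least 2-fold higher in expression in neurons. Nefm, a neurofilament subunit, had a peak at -19470 bp from its start site with 0.74 (PP), 3.87 (DP), and 5.83 (neurons), a change of 5.17. All 6 peaks of Cdk5r1 gained, by 1.26 to 4.61, as did 13 of 22 peaks of Tiam1, by up to 4.48, and 3 of 4 of Tubb3, the tubulin that drives the GFP reporter, by up to 2.77. Ank3, which organises the axon initial segment, gained at 12 of 35 and lost at 2. Cdk5r1, Tiam1, and Enc1 belong to loci that the study picked on these samples, and without these 3 genes 26 of 85 peaks gained (30.6%) and 8 lost (9.41%). With them, the share was above that of all peaks in each of 5 level groups.

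Genes of the synapse and of excitability, which are induced on the same path, did not share this. Although 20 of their 25 genes with a peak were at least 2-fold higher in expression in neurons and none was 2-fold lower, 14 of 162 peaks gained (8.64%) and 14 lost (8.64%), with a median change of -0.13. In each of 5 groups by level their share of gains was below that of all peaks, from 29.6% and 48.6% in the lowest to 0 of 34 peaks and 11.8% in the highest. Inside the genes 8 of 85 peaks gained. Kcnq3, a potassium channel subunit, had 8 peaks of which 3 lost and none gained while its expression was 44.9 in PP and 5571 in neurons. Cacna1e, a calcium channel, gained at 2 of 18 peaks and lost at 4, and Cntnap2, an adhesion molecule of axons, gained at 1 of 21. Exceptions were Nrxn2, with up to 2.87, Syt4, a vesicle protein whose 2 peaks gained by 1.57 and 2.75, and Nrxn3, where 1 of 18 peaks gained, by 2.71.

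Neurogenic progenitor genes, which peak in DP, gained at 20 of 52 peaks (38.5%) and lost at 4 (7.69%). Eomes, the T-box factor of intermediate progenitors, had 3 peaks with a median change of 3.23, and the highest gain, inside the gene, went from 1.65 in PP through 3.46 in DP to 5.07 in neurons, although its expression was 10188 (PP), 50497 (DP), and 3626 (neurons). Btg2, an antiproliferative gene that drives the RFP reporter, gained at 8 of 11 peaks by up to 2.81. It thus held 8 of the 20 gains of this list, whose share rests in large part on that gene. Dll3, a Notch ligand, and Hes6, a bHLH factor, each gained at 1 peak, by 4.03 and 2.94, of 3 and 4. Neurog2, the main proneural factor of the cortex, had 1 peak with 0.18.

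Neuronal transcription factors gained at 34 of 119 peaks (28.6%) and lost at 9 (7.56%). Of their 15 genes with a peak, 10 held a gain, beside 40.5% of all genes. These 15 genes had more peaks each than the average gene (3.65), which by itself favours at least 1 gain. Cux2, a factor of upper-layer neurons, has a pair of entries under its symbol with different expression. That with 1808 in PP and 13213 in neurons gained at 5 of 6 peaks by up to 3.69, that with 79.0 and 709.8 at 7 of 15 by up to 3.14, and neither lost at any. Bcl11b, a factor of subcerebral neurons, gained at 7 of 20 and lost at 2, and Myt1l, a repressor of non-neuronal genes, gained at 6 of 18 and lost at 2. Sox11 gained at 1 of 11, by 2.02. Neurod6 gained at 1 of 6 and lost at 1, with changes from -1.94 to 0.97, and its relative Neurod2 had the single losing peak described above.

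Radial glial genes, 15 of 16 of which were at least 2-fold lower in expression in neurons, gained at 23 of 86 peaks (26.7%) and lost at 8 (9.30%), near the share of all peaks. Without Sox2, 12 of 64 gained (18.8%) and 7 lost (10.9%). Sox2, the stem cell factor, held the other 11 gains over 22 peaks, from -2.58 to 3.43, the highest lying 144162 bp downstream at 1.34 (PP), 2.35 (DP), and 4.69 (neurons). Fgfr3 gained at 2 of 3 peaks and Fgfr2, its paralogous receptor, at 5 of 10. Slc1a3, a glutamate transporter, ranged from -1.56 to 1.77, and Emx2 from -0.99 to 1.31. Among the other markers, Pax6 gained at 1 of 2 peaks, Nes lost at 1 of 3, and Hes5 had a single peak with 0.29. Cell cycle genes, all 16 of them at least 2-fold lower in expression in neurons, gained at 13 of 63 peaks (20.6%) and lost at 4 (6.35%), with Ccnb1, a mitotic cyclin, at 3.17, Ccne1 at 1.54, and Ccnd2 at 1.32. Mki67, the proliferation antigen, gained at 6 of 19 peaks and lost at 1.

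Axon guidance genes gained at 73 of 284 peaks (25.7%) and lost at 21 (7.39%), with a median change of -0.021. The share was uneven, since Epha4 gained at 12 of 15 peaks and its relative Epha5 at 0 of 24, both ephrin receptors. Slit1, a repellent ligand, had a peak with 3.26, its receptor Robo1 one with 2.73, and the netrin receptors Dcc and Unc5a one each with 3.36 and 3.14.

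Of the enzymes that write and remove the marks, 10 of 15 genes had a peak, with 8 of 44 peaks gaining (18.2%) and 5 losing (11.4%). Tet3, which oxidises 5mC, gained at 3 of 8 peaks by up to 2.20. Tet1 and Tet2 had 1 and 2 peaks, none of which reached 1.5-fold. The peak of Tdg, the glycosylase that excises oxidised cytosines, had 5.52 (PP), 5.00 (DP), and 4.72 (neurons), a change of -0.72, and Gadd45b had one with -0.84. Mbd2, a reader of 5mC, gained by up to 1.93.

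**Figure D5:**
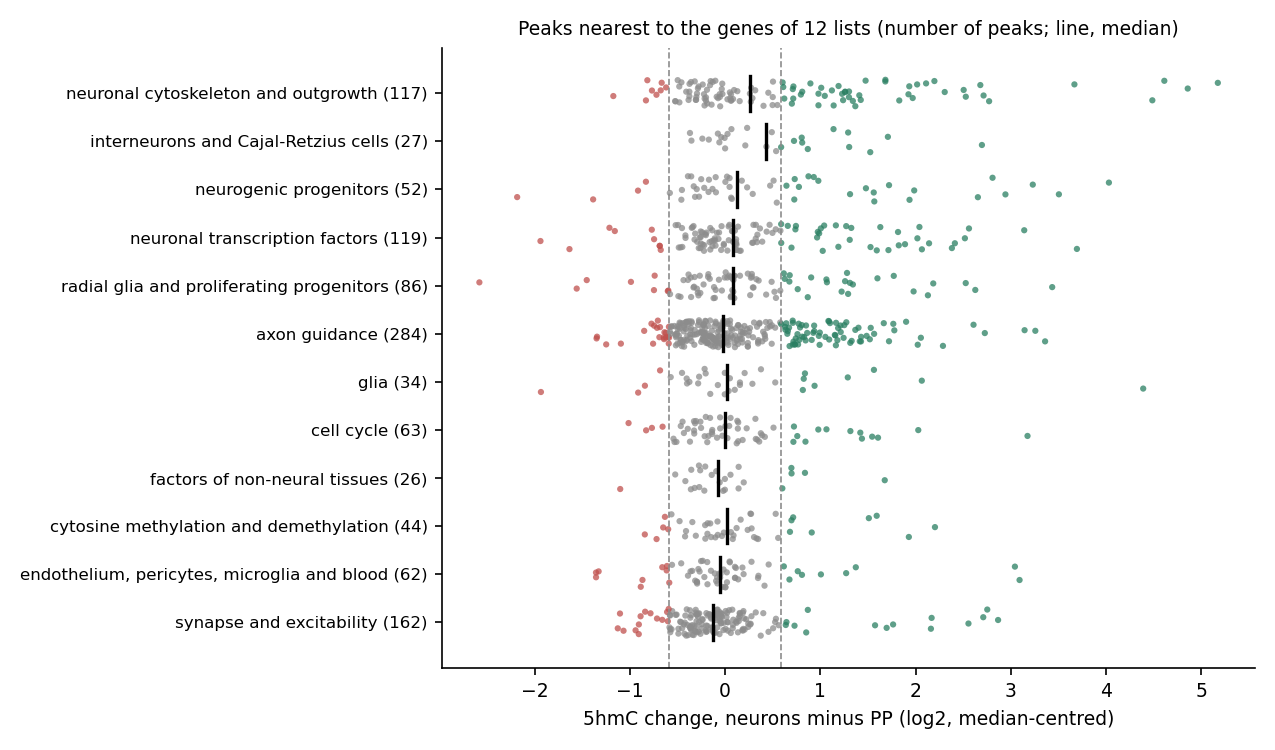
5hmC change from PP to neurons (log2, centred on the median of all peaks) of every peak nearest to the genes of 12 lists, ordered by their share of gains, with the number of peaks in brackets, the median as a line, and 1.5-fold dashed. Cytoskeletal genes reach 41.0% gains and synaptic genes 8.64%, with medians of 0.26 and -0.13.

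Lists of other cells that the gates could hold were measured in the same way. Interneuron and Cajal-Retzius genes gained at 11 of 27 peaks (40.7%) and lost at none. All 9 of their genes with a peak were at least 2-fold higher in expression in neurons, with a summed expression of 674 in PP and 41266.5 in neurons. Most of the neuronal sum came from Reln, the extracellular cue of Cajal-Retzius cells, at 36007, so it does not stand for the list as a whole. Lhx5 gained at 5 of 7 peaks by up to 2.70, Npy at 3 of 7 by up to 1.30, Dlx2 by up to 1.71, and the single peak of Reln by 0.87. Lhx5 and Npy thus held most of the 11 gains, whereas Calb2, Dlx5, Dlx6, and Nkx2-1 had none. Genes of endothelium, pericytes, microglia, and blood gained at 9 of 62 peaks (14.5%) and lost at 9 (14.5%). All 11 of their genes were at least 2-fold lower in neurons, with a summed expression of 2182 in PP and 273 in neurons. Pdgfrb alone held 843 of the sum in PP. There Flt1 and Cldn5, endothelial genes, had losses of -1.35 and -1.33, whereas Cdh5 and the microglial P2ry12 had gains of 3.09 and 3.04. Glial genes gained at 8 of 34 peaks (23.5%) and lost at 4 (11.8%). The highest single peaks were at 4.39 (Pdgfra), 2.06 (Nfix), 1.56 (Olig1), and 1.29 (Cspg4). Pdgfra, Nfix, and Cspg4 also held losses, down to -0.91, -1.93, and -0.68. Nfix gained at 1 of 7 peaks and lost at 2, and its expression was 30028 in PP and 70007 in neurons. Of the 9 genes with a peak, 7 were at least 2-fold lower in neurons, where Gfap and Sox10 were listed at 0. Genes of non-neural tissues gained at 5 of 26 (19.2%) and lost at 1, with Pax7 at up to 1.68 and Tbx5 at up to 0.84, while the largest changes of Gata6 and Twist1 were -0.42 and -0.27. The part of these cells in the 5hmC values was not tested.

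5mC was measured in a separate pull-down and was compared where a 5mC peak overlapped by at least 1 bp, its change centred on its own median. Such an overlap was found for 27.5% of 5hmC-gain, 6.01% of 5hmC-loss, and 10.9% of other peaks, and gains overlapped more often than losses and other peaks in each of the 10 level groups, with 28.9%, 5.05%, and 8.05% in the lowest and 43.9%, 13.0%, and 19.4% in the highest. The median 5mC change was -0.48 at gains, 0.065 at losses, and 0.023 at others. At 43.9% of the 2887 overlapping gains, 5mC was at least 1.5-fold lower in neurons, and at 0.87% it was at least 1.5-fold higher, compared with 24.3% and 3.75% of all overlapping peaks. Of 10 groups ordered by 5hmC change, the lowest had a median 5mC change of 0.068 and the highest -0.81, and Spearman's rho over all 6725 pairs, which share the cell types and positions, was -0.51. At the 220 overlapping losses, 5mC was at least 1.5-fold higher at 6.82% and lower at 13.6%, compared with 5.86% and 9.23% of other peaks.

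Named loci showed both patterns. Plcxd2, with its 5hmC change of 4.31, had 5mC at 5.20 (PP), 4.60 (DP), and 2.39 (neurons), a change of -2.64. Psg16 and Apobec2 had 5mC changes of -2.24 and -2.43, Atxn10 of -1.17, and Syf2 and Il17c of -0.52 and -0.24. Among the losses, 5mC was lower in neurons as well at Rasgef1b, from 5.93 in PP through 4.14 in DP to 1.90 in neurons, and at Emx1, from 4.33 in PP to 1.57 in DP and 1.69 in neurons, so that both marks were lost there. At Dpy19l1, by contrast, 5mC stayed near the top of its scale, with 9.56 in PP and 9.33 in neurons, a change of -0.062.

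Only 5 of 1005 RefSeq miRNA hairpins overlapped a 5hmC peak. Mir6353 and Mir6975 lay in gains with 0.69 and 0.67, Mir7083 in a loss with -0.67, and Mir7023 and Mir8116 in peaks with -0.034 and -0.15.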

How the data were processed

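5hmC and 5mC peaks of sorted PP, DP, and neurons were used as deposited. Per the labels and methods, the authors aligned reads to mm10 with BWA (0.7.8-r455), called peaks with SICER (1.1), kept those found in all replicates of a cell type, left out peaks overlapping repeats, normalised reads by TMM in DiffBind, and annotated the nearest start site with HOMER (4.7). The deposited level columns hold log2 values, averaged by the authors over 3 replicates. The expression and distance columns deposited by the authors were treated as a score, and the expression columns name no unit. The study plots expression as FPKM, but these values sum to between 25820052 and 34824777 per cell type over the genes listed, so they were not taken as FPKM. The 10 columns of the authors' comparisons (folds, p-values, and expression changes) were not used. No counts were used, and the tables used here carry no depth per sample, so that the precision of a level is not given.

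Changes were centred on the median, with a minimum of 1.5-fold. Expression changes were log2 with a pseudocount of 1. The 61 symbols with several entries of different expression were left out of correlations with expression. Overlaps needed at least 1 bp. Steps were tested on simulated data. Named loci were the 10 largest gains and losses among peaks at or above the median level, the 10 genes with the highest and lowest median change among those with at least 5 peaks, up to 4 genes per list with the largest single change, the cell type markers, the amplicon loci, and Xist with the 2 X-linked genes with most losses. Other genes were named after their values were seen. Members and lists were chosen with earlier results of these data known. Sequence content of whole peaks was not analysed here, since no genome was used, and promoter windows of RefSeq (GRCm38.p6) took its place. Python 3.11.15, pandas 2.3.3, numpy 2.4.6, scipy 1.17.1, and matplotlib 3.10.9 were used.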

Additional observations from a re-analysis of the deposited data

How the results depend on the processing

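The tables hold 1 mean per cell type, so no replicate was left out, the tables carry neither replicate error nor depth, and low levels limit what a large fold means. No paired analysis was possible because the columns carry no replicate. Sequence content of whole peaks and its alternatives were not run. Of 193 alternative values, 156 stayed close to the reported ones. The share of gains inside over upstream and that of genes higher over lower in neurons kept their direction throughout. Some alternatives for X, the expression groups, and the lowest level group were chosen after seeing the data.

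Gains per loss were 1.87 without centring, 1.78 after quantile normalisation, 11.5 at 2-fold, 6.48 with a pseudocount of 8 reads, and 0.84 with centring on the mean, which reversed the balance because the mean lies above the median. Gains numbered 6758 at 2-fold, 3262 among peaks at or above the median level, and 5365 at or above the lower quartile. Losses numbered 9555 with centring on the mean, 5679 after quantile normalisation, 588 at 2-fold, 936 and 1979 under both level filters, and 1318 with the pseudocount. On X, the share of gains was 1.68% with centring on the mean, 1.39% at 2-fold, 1.35% and 1.72% under the level filters, and 1.88% with the pseudocount.

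The log2 ratio of the share of gains to that of all peaks was -1.35 for synaptic genes, and -2.01 and -2.26 under the level filters. It changed sign for cell cycle genes, to 0.028 without centring, 0.82 and 0.47 under the level filters, and 0.081 with the pseudocount. It also did for axon guidance (-0.015) and glia (-0.27) at 2-fold, for glia at or above the lower quartile (-0.38), for radial glia at or above the median (-0.46), and for non-neural tissues at or above the median (0.69) and the lower quartile (0.27). Spearman's rho with expression was 0.013 with the highest-level peak of each gene. Beyond the centring, the causes were not tested.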
